A study of Homo sapiens with 9 samples.

Results

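The genes described are those of the human ATP-binding cassette family whose symbol has the form ABC, a subfamily letter from A to G and a number. This rule, applied to the gene names alone, found 46 of the 26475 genes in every library. Most members encode membrane pumps that couple ATP hydrolysis to the movement of lipids, bile constituents, drugs or conjugated metabolites, while members of subfamilies E and F have no membrane part and act in translation. In the liver, ABC pumps move bile salts, phospholipid and conjugates across the canalicular membrane, load lipoproteins with cholesterol, and carry fatty acids and iron-sulfur or haem precursors across the membranes of peroxisomes and mitochondria.

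RNA was sequenced from Hep3B, an established human hepatoma line, so every value comes from cells of 1 line in culture. All groups were kept under hypoxia for 6 h, and they received either DMSO, the solvent control, or the compound labelled DHE. One set is replicated, with 3 libraries for each treatment. The other, called the dose set, holds a single library for each of DMSO, DHE labelled high and DHE labelled low. The labels give no concentration in either set, and no normoxic sample was analysed here. Nor do they state that replicates were grown apart, so a p-value refers to the spread among these libraries, and that spread may be technical.

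Library totals ranged from 22167516 to 36267216 counts, of which ABC genes took 0.145% to 0.164%. DHE replicate 1 stood apart from the other DHE replicates: its counts differed from theirs by a chi-square per gene of 30.2 and 35.8, against 5.58 between DHE replicates 2 and 3 and 9.07 to 15.6 between DMSO replicates. To DMSO replicate 1 its distance was 31.1, and to DMSO replicates 2 and 3 it was 50.3 and 51.2. Of 10 hepatocyte and hepatoma markers all 10 were tested, with a summed level of 12467 to 13378 TPM in the DMSO replicates and 11019 to 12443 TPM in the DHE replicates. Singly they moved both ways: edgeR called 5 higher, among them APOB and HNF4A, and 4 lower, among them ALB and SERPINA1. In the dose set the 10 markers summed to 37125 TPM with DMSO, 19392 TPM in the library labelled high and 10790 TPM in the one labelled low. Summed leukocyte markers stood at 113 to 126 TPM against 69.0 to 74.1 TPM, nearly all of it CD68 and LYZ (edgeR called both lower), while PTPRC, CD3E and MS4A1 had at most 0.0389 CPM on average in either group. Endothelial markers summed to 0.86 to 1.06 TPM with DMSO against 0.44 to 0.60 TPM with DHE (PECAM1 fell, edgeR adjusted p = 0.0133) and to 1.83 TPM in the dose-set DMSO library. In the replicated set fibroblast markers summed to 25.7 to 29.0 TPM with DMSO against 31.9 to 37.5 TPM with DHE, and cholangiocyte markers, among them KRT19 and EPCAM, to 999.9 to 1028 TPM against 1061 to 1141 TPM. The part of these shifts in the results was not tested. All cells are of the Hep3B line, and in bulk RNA fewer cells with a transcript and less of it per cell cannot be told apart.

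Hep3B cells contained transcripts of most of the family. Levels between genes are given as TPM, transcript abundance scaled to transcript length and library total, and levels of 1 gene between libraries as CPM, counts scaled to library size. In the DMSO replicates 18 members had a mean of at least 10 TPM, 9 lay between 1 and 10 TPM and 19 were under 1 TPM. ABCF1, a partner of translation initiation, had the highest level, 91.1 ± 3.58 TPM (SD, n = 3), and its range did not overlap that of the next gene. ABCC6, the hepatic transporter whose loss causes pseudoxanthoma elasticum, followed at 58.5 ± 7.07 TPM and ABCD3, a peroxisomal transporter, at 48.9 ± 4.0 TPM, with overlapping ranges. The drug and conjugate pump ABCC1 (39.0 ± 3.04 TPM) came next, and ranks 4 to 12 (down to ABCC5 at 23.8 ± 2.50 TPM) each overlapped their neighbour.

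**Figure D1:**
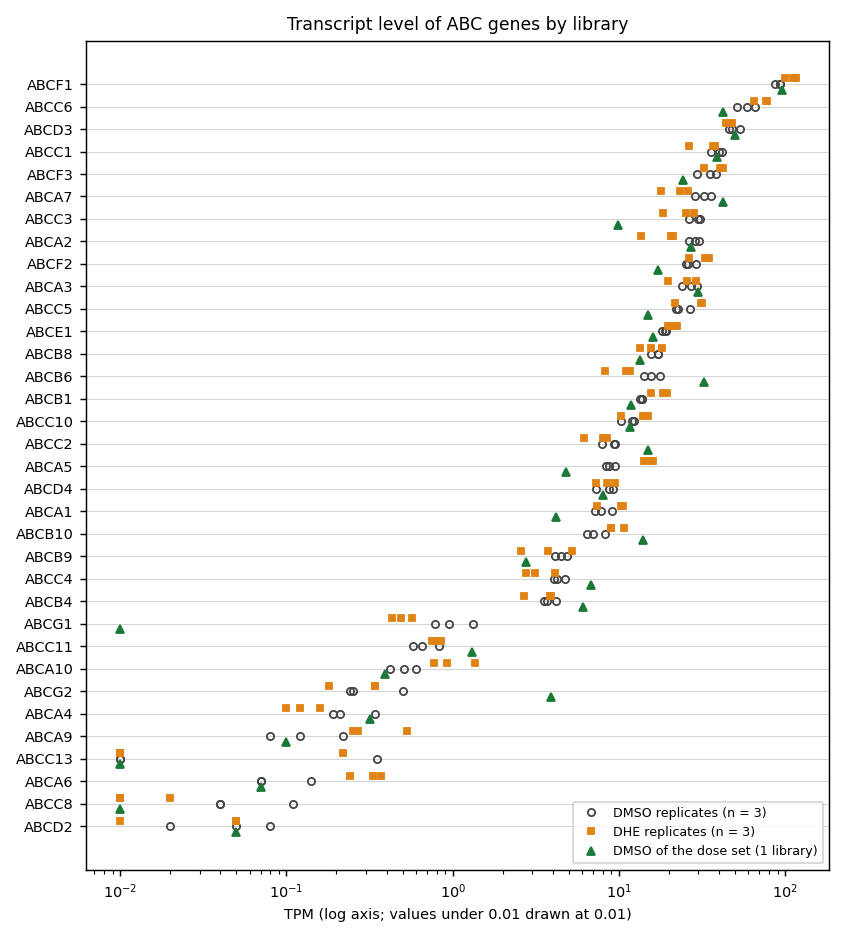
TPM on a log axis for members given in the text with a DMSO mean of at least 0.05 TPM, in order of that mean, in the 3 DMSO replicates (open circles), the 3 DHE replicates (squares) and the DMSO library of the dose set (triangles). ABCF1 stands highest at 91.1 TPM, and ABCG2 is the member whose dose-set DMSO value, 3.92 TPM, lies farthest by ratio above its replicated-set mean, 0.33 TPM.

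Of the 46 members 33 passed the filter on low counts and were tested, and 13 were not. The untested genes were ABCA8, ABCA12, ABCA13, ABCB5, ABCB11, ABCC8, ABCC9, ABCC12, ABCC13, ABCD2, ABCG4, ABCG5 and ABCG8, each with at most 11 counts in any library. ABCC12 had 0 counts in all 9 libraries, which allows up to 0.0827 to 0.135 CPM by counting error. ABCB11, the bile salt export pump of hepatocytes, had at most 1 count, and ABCG5 and ABCG8, which together form the sterol exporter of bile, at most 3 and 6 counts. These levels are too low to show or exclude a change.

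With DHE, 8 of the 33 tested members were higher (24.2%) and 9 lower (27.3%), by edgeR's quasi-likelihood test, with p-values adjusted by Benjamini-Hochberg over 14492 genes and a threshold of 0.05. Over all tested genes 13.4% were called higher and 12.8% lower. Those that rose included ABCA5, ABCA6, ABCA10, ABCB1, ABCB10, ABCF1 and ABCF2, and those that fell included ABCA2, ABCA7, ABCB6, ABCC1, ABCC2, ABCC3, ABCC4 and ABCG1. In size the calls ran from 1.17-fold to 3.18-fold, and 2 genes, ABCA6 and ABCG1, passed 2-fold, both at low counts. The median log2 fold change of tested members was -0.03 and that of all tested genes -0.0033, while the median of its absolute value was 0.279 for members and 0.179 for all tested genes. No test of the list as a whole was made.

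**Figure D2:**
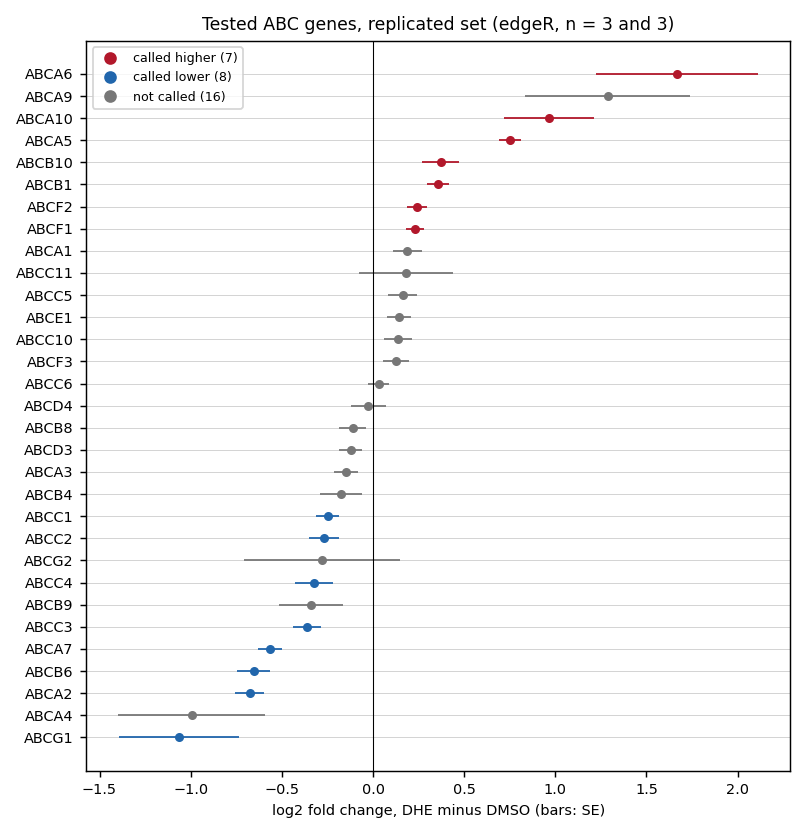
Log2 fold change, DHE minus DMSO, of 31 tested members with its standard error (bars), from edgeR on 3 and 3 replicates. Those called higher (7), lower (8) and not called (16) are coloured, and the widest bars belong to genes of few counts such as ABCA6, ABCA9, ABCA4 and ABCG1.

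In 9 of the 33 tested members every DHE replicate lay above every DMSO replicate, and in 11 of the 33 every one lay below. Over all tested genes the shares were 20.8% upward and 20.8% downward. The tested members without overlap included all 17 called genes, ABCA9 upward, and ABCA4 and ABCB4 downward. By subfamily, edgeR called 3 of 9 tested A genes higher and 2 lower, 0 of 8 C genes higher and 4 lower, and 2 of 3 F genes higher and 0 lower. The single E gene was not called, and 1 of 2 tested G genes was lower. Over all tested genes 13.4% were higher and 12.8% lower, which stand beside these counts and those by function below. Each count rests on few genes, and no subfamily or function was tested as a whole.

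Promoters are shown for the called genes with the smallest p on each side, ABCA5 and ABCB1 (higher) and ABCA2 and ABCA7 (lower). Each stretch runs from 250 bases before to 50 bases after the gene start given by RefSeq on GRCh38.p14, 5′ to 3′ on the gene's strand. The letters searched were ACGTG and GCGTG on both strands. Either can form the core of a hypoxia response element, and GCGTG is also the core bound by the aryl hydrocarbon receptor with its partner. Capitals mark GCGTG, read on either strand, and ACGTG does not occur on either strand of these 4 stretches. The positions are chr17:69327084-69327383 (minus strand) for ABCA5, chr7:87713246-87713545 (minus strand) for ABCB1, chr9:137028873-137029172 (minus strand) for ABCA2 and chr19:1039857-1040156 (plus strand) for ABCA7.
ABCA5: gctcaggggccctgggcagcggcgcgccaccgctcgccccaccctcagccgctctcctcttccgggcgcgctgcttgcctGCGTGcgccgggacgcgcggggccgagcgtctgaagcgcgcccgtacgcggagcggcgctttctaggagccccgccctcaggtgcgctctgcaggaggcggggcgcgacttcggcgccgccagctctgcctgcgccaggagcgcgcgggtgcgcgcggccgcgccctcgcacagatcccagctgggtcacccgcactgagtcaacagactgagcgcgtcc
ABCB1: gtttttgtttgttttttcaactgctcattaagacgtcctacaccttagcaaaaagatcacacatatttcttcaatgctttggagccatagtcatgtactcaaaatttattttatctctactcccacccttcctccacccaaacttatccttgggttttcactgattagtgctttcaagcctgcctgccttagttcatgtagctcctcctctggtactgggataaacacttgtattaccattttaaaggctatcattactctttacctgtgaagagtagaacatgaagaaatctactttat
ABCA2: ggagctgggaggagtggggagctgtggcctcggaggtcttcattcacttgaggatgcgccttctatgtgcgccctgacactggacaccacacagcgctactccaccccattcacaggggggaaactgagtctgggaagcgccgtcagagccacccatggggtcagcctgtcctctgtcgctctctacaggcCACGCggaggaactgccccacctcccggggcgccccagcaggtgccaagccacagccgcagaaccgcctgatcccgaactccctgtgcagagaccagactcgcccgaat
ABCA7: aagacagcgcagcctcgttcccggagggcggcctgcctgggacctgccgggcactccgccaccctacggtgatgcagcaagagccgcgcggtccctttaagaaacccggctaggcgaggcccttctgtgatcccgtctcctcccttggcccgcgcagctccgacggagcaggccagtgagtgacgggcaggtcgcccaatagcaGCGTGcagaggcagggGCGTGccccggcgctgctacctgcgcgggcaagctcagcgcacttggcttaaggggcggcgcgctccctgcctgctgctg

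A promoter entry was found for 35 of the 46 members. ACGTG occurred in 22.9% of them and in 21.6% of all 27305 promoters in the table, GCGTG in 37.1% against 36.3%, and one or the other in 57.1% against 48.4%. The motifs differ in their first letter, so on 1 strand no position matches both. ABCA5's stretch was 76.3% G and C and ABCB1's 37.7%, so these stretches at the annotated gene starts differ widely in sequence. Where transcripts of either gene start in these cells was not measured. A match is a description of letters, and no factor's binding was measured.

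Among transporters that export sterols and phospholipids, 4 of 7 were tested, 0 rose and 2 fell. ABCA7 (chromosome 19, 1040107 to 1065572 in GRCh38.p14), a phospholipid exporter also linked to phagocytosis, read 125, 127 and 139.7 CPM in the DMSO replicates and 80.9, 95.6 and 87.9 CPM in the DHE replicates. Every DHE value lay below every DMSO value, a fall of 1.48-fold (log2 fold change -0.57 ± 0.07 (SE), edgeR adjusted p = 8.14e-05). ABCG1 (chromosome 21, 42199689 to 42297244), which passes cholesterol to HDL, had low counts, 1.39, 1.52 and 2.14 CPM in the DMSO replicates and 0.902, 0.851 and 0.671 CPM in the DHE replicates. Its groups did not overlap and it fell 2.09-fold (log2 fold change -1.06 ± 0.33 (SE), edgeR adjusted p = 0.0304), but the call was lost without DMSO replicate 1, 2 or 3 or DHE replicate 2 or 3 (edgeR adjusted p from 0.0518 to 0.132). ABCA1, the cholesterol and phospholipid pump that starts HDL formation, read 48.9, 55.9 and 48.02 CPM in the DMSO replicates and 52.3, 60.97 and 60.9 CPM in the DHE replicates, with overlapping groups (log2 fold change 0.19 ± 0.08 (SE), edgeR adjusted p = 0.0908). Without DHE replicate 1 it passed (edgeR adjusted p = 0.0120), as it did without DMSO replicate 2 (edgeR adjusted p = 0.0421). It also passed on all libraries with the replicate number as a block. ABCB4, the canalicular phosphatidylcholine floppase, was not called (log2 fold change -0.18 ± 0.12 (SE), edgeR adjusted p = 0.298).

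Subfamily A members outside sterol efflux moved in both directions: of 10 such genes 7 were tested, 3 rose and 1 fell. ABCA2 (chromosome 9, 137007234 to 137028922), a lipid transporter of endosomes and lysosomes, read 139, 144 and 136 CPM in the DMSO replicates and 74.2, 93.4 and 93.9 CPM in the DHE replicates. It fell 1.599-fold (log2 fold change -0.68 ± 0.08 (SE), edgeR adjusted p = 6.71e-05), with DHE replicate 1 the lowest library. ABCA3, known for loading lipids into lung surfactant, stood at a mean of 26.8 ± 2.64 TPM with DMSO. It was not called (log2 fold change -0.15 ± 0.07 (SE), edgeR adjusted p = 0.121). Still, it passed without DHE replicate 2 (edgeR adjusted p = 0.0440), and on all libraries with the replicate number as a block. ABCA4, the retinoid flippase of photoreceptors, had at most 51 counts in a library and was not called (log2 fold change -0.996 ± 0.40 (SE), edgeR adjusted p = 0.0861).

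The 3 members of subfamily A that rose lie side by side on chromosome 17. On the minus strand, in the direction of transcription, ABCA5 is followed by ABCA10, ABCA6 and ABCA9, and ABCA8 comes next, over a stretch from 69327133 down to 68867289. ABCA5 (chromosome 17, 69244311 to 69327133), a transporter of endosomes and lysosomes, read 48.6, 45.2 and 49.3 CPM in the DMSO replicates and 85.1, 77.5 and 78.6 CPM in the DHE replicates. The groups were far apart, and it rose 1.68-fold (log2 fold change 0.75 ± 0.06 (SE), edgeR adjusted p = 4.6e-06). ABCA10 (chromosome 17, 69148007 to 69244848) had fewer counts, 2.39, 1.52 and 1.84 CPM in the DMSO replicates and 3.23, 3.12 and 4.81 CPM in the DHE replicates, and rose 1.95-fold (log2 fold change 0.96 ± 0.25 (SE), edgeR adjusted p = 0.0123). Its call was lost without DMSO replicate 2 or DHE replicate 3 (edgeR adjusted p from 0.05001 to 0.0708). ABCA6 (chromosome 17, 69078702 to 69141895) read 0.242, 0.225 and 0.412 CPM in the DMSO replicates and 0.827, 0.914 and 1.08 CPM in the DHE replicates, at most 37 counts in a library, with groups that did not overlap. It rose 3.18-fold (log2 fold change 1.67 ± 0.45 (SE), edgeR adjusted p = 0.0152), and the call was lost without DMSO replicate 1 or 2 or DHE replicate 3 (edgeR adjusted p from 0.0537 to 0.0719). ABCA9 (chromosome 17, 68974488 to 69078977) read 0.332, 0.787 and 0.439 CPM in the DMSO replicates and 1.13, 0.851 and 1.84 CPM in the DHE replicates, also without overlap, and did not pass the threshold (log2 fold change 1.29 ± 0.45 (SE), edgeR adjusted p = 0.0524). It passed without DMSO replicate 2 (edgeR adjusted p = 0.0351) or DHE replicate 2 (edgeR adjusted p = 0.0429). On all libraries it passed with DESeq2, with limma-voom and with edgeR without the filter, but not with limma on log2 TPM. ABCA8 had at most 5 counts and was not tested.

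The 4 tested genes of this row thus all had positive log2 fold changes in the replicated set, from 0.75 to 1.67, and 3 passed the test. In the dose set ABCA10 read 1.48 CPM with DMSO, 1.33 CPM in the library labelled high and 1.68 CPM in the one labelled low, ratios of 0.903 (95% exact interval 0.552 to 1.47) and 1.14 (95% exact interval 0.709 to 1.83), so both intervals held 1. ABCA6 had 6 counts with DMSO, 6 labelled high and 2 labelled low, too few to show a change. The annotated ends of ABCA5 and ABCA10 overlap by 537 bases and those of ABCA6 and ABCA9 by 275 bases on the same strand, so reads there cannot be assigned with certainty. Of 4 tested flanking genes edgeR called 0 higher and 1 lower. MAP2K6, a stress kinase upstream of ABCA5, had a log2 fold change of -0.19 (edgeR adjusted p = 0.740). FAM20A, on the far side, had 0.28 (edgeR adjusted p = 0.494) and PRKAR1A, a regulatory subunit of protein kinase A, 0.15 (edgeR adjusted p = 0.0718), while the autophagy gene WIPI1 fell (-0.27, edgeR adjusted p = 0.0385). Other neighbouring pairs were mixed. ABCB1 rose and ABCB4, 27.0 kb away, was not called, and ABCC1 fell while ABCC6, 6.5 kb away, was not called. In other pairs the calls were alike. ABCC5 and ABCF3, 168.3 kb apart, were both not called (log2 fold changes 0.16 and 0.13). ABCA4 and ABCD3, 264.0 kb apart, were both not called (-0.996 and -0.12).

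Efflux pumps of drugs and conjugates at the plasma membrane gave 1 rise and 3 falls among 9 tested of 12. ABCB1 (chromosome 7, 87503017 to 87713295), the multidrug pump P-glycoprotein, read 39.1, 36.8 and 36.4 CPM in the DMSO replicates and 48.04, 48.5 and 47.2 CPM in the DHE replicates. Both groups were tight and did not overlap, and it rose 1.28-fold (log2 fold change 0.36 ± 0.06 (SE), edgeR adjusted p = 0.00111). ABCC1 (chromosome 16, 15949143 to 16143053), which exports glutathione conjugates and leukotriene C4, read 148, 157 and 150.2 CPM in the DMSO replicates and 116, 129.8 and 138 CPM in the DHE replicates. It fell 1.19-fold (log2 fold change -0.25 ± 0.06 (SE), edgeR adjusted p = 0.0118), a call lost without DMSO replicate 2 (edgeR adjusted p = 0.0511). ABCC3 (chromosome 17, 50634881 to 50692253), the basolateral exporter of glucuronides, read 78.3, 85.8 and 83.8 CPM in the DMSO replicates and 56.2, 70.3 and 66.3 CPM in the DHE replicates and fell 1.29-fold (log2 fold change -0.36 ± 0.08 (SE), edgeR adjusted p = 0.00374). ABCC4 (chromosome 13, 95019835 to 95301451), a pump of cyclic nucleotides and bile acids, read 14.4, 12.8 and 13.01 CPM in the DMSO replicates and 10.2, 11.9 and 10.1 CPM in the DHE replicates, without overlap. It fell 1.25-fold (log2 fold change -0.32 ± 0.11 (SE), edgeR adjusted p = 0.0383), but the call was lost without DMSO replicate 1, 2 or 3 or DHE replicate 1 or 3 (edgeR adjusted p from 0.0606 to 0.135). The canalicular conjugate pump ABCC2 (chromosome 10, 99782640 to 99852594), grouped with ABCB11 as a route into bile, read 26.98, 28.8 and 29.3 CPM in the DMSO replicates and 22.1, 23.3 and 25.1 CPM in the DHE replicates and fell 1.204-fold (log2 fold change -0.27 ± 0.08 (SE), edgeR adjusted p = 0.02803). That call was lost without DMSO replicate 2 or 3 or DHE replicate 1 or 2 (edgeR adjusted p from 0.0647 to 0.0907).

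The remaining pumps of this group were not called. ABCC5, an exporter of cyclic nucleotides, was not called on all libraries (log2 fold change 0.16, edgeR adjusted p = 0.1498) and passed without DHE replicate 1 (edgeR adjusted p = 0.00755). ABCC10 (log2 fold change 0.14, edgeR adjusted p = 0.203) and ABCC11, the pump that sets earwax type (log2 fold change 0.18, edgeR adjusted p = 0.647), did not pass either. ABCG2, the breast cancer resistance protein, read 0.665, 0.619 and 1.23 CPM in the DMSO replicates and 0.489, 0.788 and 0.787 CPM in the DHE replicates, with overlapping groups (log2 fold change -0.28 ± 0.43 (SE), edgeR adjusted p = 0.675).

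ABCC6 was not called on counts, while its estimated transcript length differed between the groups. It read 94.6, 102 and 92.9 CPM in the DMSO replicates and 92.6, 102 and 101 CPM in the DHE replicates (log2 fold change 0.03 ± 0.06 (SE), edgeR adjusted p = 0.744). The abundance-weighted transcript length that RSEM reports, which drops when more of a gene's reads are assigned to shorter transcripts, was 3086, 2904 and 2925 bases in the DMSO replicates and 2366, 2641 and 2572 bases in the DHE replicates. In the dose set it was 3510 bases with DMSO, 2755 in the library labelled high and 2623 in the one labelled low. All 5 DHE libraries thus lay below all 4 DMSO libraries. Of 18 tested members whose length varied at all, ABCC6 was the 1 member (5.56%) shorter in every DHE replicate, and 0 were longer, against 7.49% shorter and 7.09% longer among 7168 such genes, so the count is near the background. The TPM of ABCC6, which divides by that length, went from 58.5 ± 7.07 with DMSO to 73.1 ± 7.10 with DHE (SD, n = 3 each).

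ABCC6 has near-identical partial copies, the pseudogenes ABCC6P1 and ABCC6P2, so the split of reads among them is uncertain. As CPM of the library total, ABCC6P1 had 60.0, 60.9 and 62.2 in the DMSO replicates and 53.5, 58.6 and 48.6 in the DHE replicates. ABCC6P2 had 2.38 to 3.77 and 3.16 to 3.93. In the dose set ABCC6P1 had 45.0 with DMSO, 25.1 labelled high and 19.0 labelled low. Its values were thus lower in every DHE library than in the DMSO libraries of the same set, and their part in the length of ABCC6 was not tested.

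**Figure D3:**
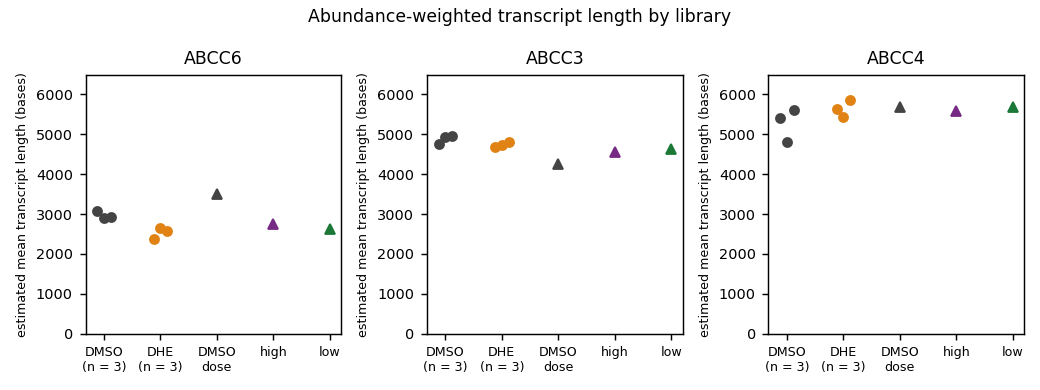
Abundance-weighted transcript length in bases, as RSEM estimated it, of ABCC6 and, beside it, of ABCC3 and ABCC4, in the 3 DMSO replicates, the 3 DHE replicates and the 3 dose-set libraries (triangles). For ABCC6 the 5 DHE libraries, 2366 to 2755 bases, all lie below the 4 DMSO libraries, 2904 to 3510 bases, while the replicate groups of ABCC3 and ABCC4 overlap.

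Among transporters of mitochondria, ABCB10 rose and ABCB6 fell. ABCB10 (chromosome 1, 229516582 to 229558707), a transporter of the inner membrane needed for haem synthesis, read 15.3, 15.01 and 17.7 CPM in the DMSO replicates and 22.1, 21.6 and 18.5 CPM in the DHE replicates and rose 1.29-fold (log2 fold change 0.37 ± 0.10 (SE), edgeR adjusted p = 0.0165). The call was lost without DMSO replicate 1 or 2 or DHE replicate 2 (edgeR adjusted p from 0.0562 to 0.0685). ABCB6 (chromosome 2, 219209772 to 219218958), a porphyrin transporter whose place in the mitochondrial outer membrane is debated, read 25.3, 28.9 and 25.6 CPM in the DMSO replicates and 15.4, 17.8 and 17.4 CPM in the DHE replicates. It fell 1.57-fold (log2 fold change -0.66 ± 0.09 (SE), edgeR adjusted p = 0.000252), with the groups far apart. ABCB8 was not called (log2 fold change -0.11, edgeR adjusted p = 0.294), nor was ABCB9, the lysosomal peptide transporter (log2 fold change -0.34, edgeR adjusted p = 0.179), which passed without DHE replicate 2 (edgeR adjusted p = 0.0104).

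In subfamily D, ABCD3 and ABCD4 were not called. ABCD3, which imports branched-chain acids and bile acid precursors, read 95.1, 88.4 and 100.2 CPM in the DMSO replicates and 92.6, 81.7 and 86.5 CPM in the DHE replicates and was not called (log2 fold change -0.12 ± 0.06 (SE), edgeR adjusted p = 0.177). ABCD4, which acts in lysosomal cobalamin release, was not called (log2 fold change -0.03, edgeR adjusted p = 0.877).

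The soluble ATPases of translation gave 2 rises among 4, both small. ABCF1 (chromosome 6, 30571442 to 30591522) read 182, 178 and 177 CPM in the DMSO replicates and 219, 199 and 212 CPM in the DHE replicates. It rose 1.17-fold (log2 fold change 0.23 ± 0.05 (SE), edgeR adjusted p = 0.00515). ABCF2 (chromosome 7, 151211484 to 151227205), a cytosolic relative of ABCF1, read 52.4, 52.1 and 51.4 CPM in the DMSO replicates and 59.1, 63.5 and 61.4 CPM in the DHE replicates and rose 1.18-fold (log2 fold change 0.24 ± 0.06 (SE), edgeR adjusted p = 0.00681), again without overlap. ABCE1, the factor that splits ribosomes after termination, read 46.7, 44.2 and 45.2 CPM in the DMSO replicates and 53.1, 46.4 and 50.6 CPM in the DHE replicates, with overlapping groups (log2 fold change 0.14 ± 0.07 (SE), edgeR adjusted p = 0.135), and ABCF3 was not called (log2 fold change 0.13, edgeR adjusted p = 0.214).

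**Figure D4:**
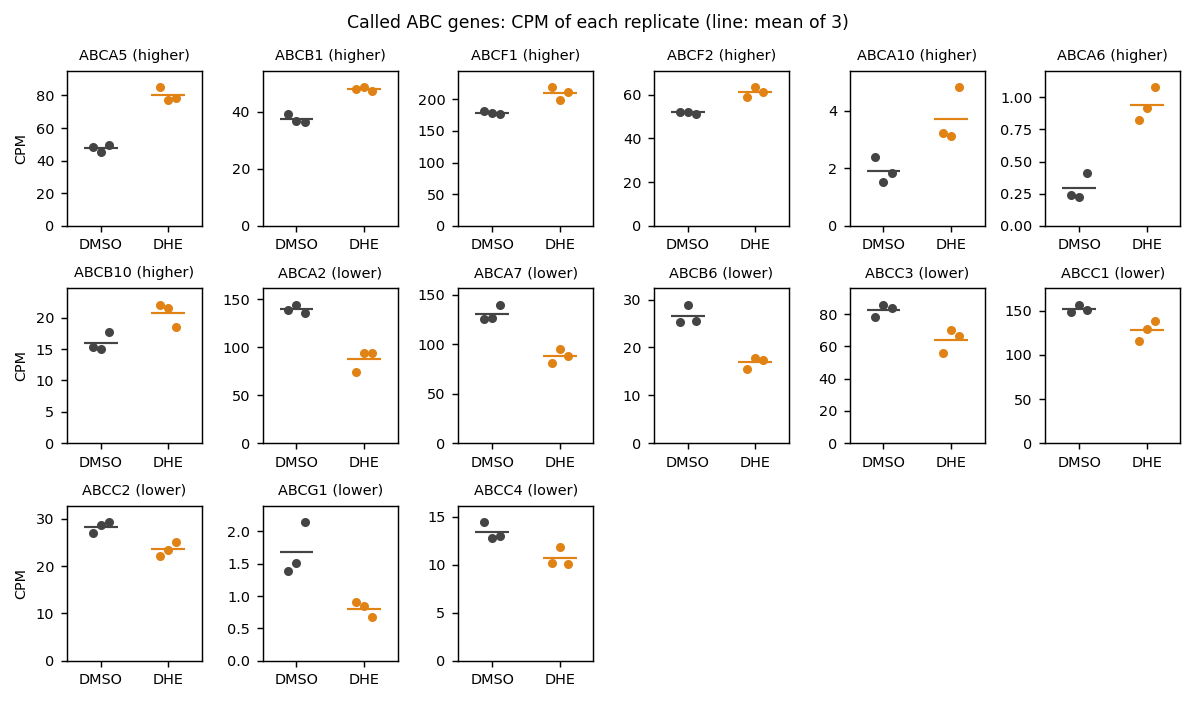
CPM of each replicate (points) with the mean of 3 (lines) for 15 called members, DMSO at left and DHE at right in each panel, all axes starting at 0. In every panel the 3 DHE points lie all above or all below the 3 DMSO points, from about 0.2 CPM for ABCA6 with DMSO to 219 CPM for ABCF1 with DHE.

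The 16 tested members without a call split into 8 positive and 8 negative log2 fold changes, from -0.996 for ABCA4 to 1.29 for ABCA9, and 12 of them lay within 0.2 of 0. On a log2(TPM + 1) scale with limma only ABCA5, ABCA2, ABCA7 and ABCB6 passed, and these 4 also kept their calls under each of the 17 alternatives run.

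The dose set was read without a test, since each group is 1 library, and the comparisons with DHE labelled high and low share their DMSO library. Here 31 members had at least 20 counts in a library. In the library labelled high 0 members were 2-fold higher and 0 were 2-fold lower than DMSO, against 0.943% and 3.39% of 13468 genes. In the library labelled low 2 were 2-fold higher and 0 lower, against 3.03% and 6.6%. Median log2 ratios were -0.01 (all genes 0.01) for the library labelled high and -0.08 (all genes 0.01) for the one labelled low.

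The 2 members past 2-fold were ABCG2 and ABCA9. ABCG2 read 10.1 CPM with DMSO, 14.4 CPM in the library labelled high and 24.6 CPM in the one labelled low, a ratio of 2.42 (95% exact interval 2.09 to 2.82) for low and 1.42 (95% exact interval 1.205 to 1.67) for high. Its level in this set was far above the 0.619 to 1.23 CPM of the DMSO replicates. ABCA9 read 0.389 CPM with DMSO, 0.431 CPM in the library labelled high and 1.03 CPM in the one labelled low, a ratio of 2.66 (95% exact interval 1.23 to 6.23) for low from few counts. Intervals cover counting error only, since reads are not independent molecules, and not the spread between cultures.

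By these counting intervals 8 members lay above 1, 9 below and 14 held 1 in the library labelled high, and 10, 12 and 9 in the one labelled low. The intervals were computed for members only, so no share over all genes stands beside these counts. They are therefore no result about the family as against other genes. ABCE1 read 39.1 CPM with DMSO, 59.03 CPM in the library labelled high and 69.7 CPM in the one labelled low. For ABCA1 the values were 26.4 CPM with DMSO, 38.6 CPM in the library labelled high and 32.9 CPM in the one labelled low. ABCF2 read 36.4 CPM with DMSO, 49.5 CPM in the library labelled high and 48.3 CPM in the one labelled low. In all 3 the DHE libraries were the higher ones. ABCB10 gave 31.3 CPM with DMSO, 36.8 CPM in the library labelled high and 38.96 CPM in the one labelled low. In these 4 genes, as in ABCG2, each DHE library read higher than the shared DMSO library, with an interval above 1. ABCA7 read 172 CPM with DMSO, 98.8 CPM in the library labelled high and 92.2 CPM in the one labelled low. ABCA2 read 134 CPM with DMSO, 98.9 CPM in the library labelled high and 70.8 CPM in the one labelled low, and so stepped down further in the low library. ABCB6 gave 55.8 CPM with DMSO, 38.6 CPM in the library labelled high and 40.04 CPM in the one labelled low. For ABCC2, the canalicular pump, the values were 47.9 CPM with DMSO, 37.1 CPM in the library labelled high and 30.3 CPM in the one labelled low. ABCC1 had 153 CPM with DMSO, 138 CPM in the library labelled high and 117 CPM in the one labelled low. In these 5 genes, as in ABCC3 and ABCC6, each DHE library read lower than the shared DMSO library, with an interval below 1. Over the same libraries, the summed hepatocyte and hepatoma markers were lower too, with 2 of 10 at least 2-fold lower labelled high and 6 of 10 labelled low. APOB (log2 ratio 0.24) and TTR (0.014) were not lower in the library labelled high. The part of these markers in the values of the members was not tested. ABCC6 read 84.7 CPM with DMSO, 68.4 CPM in the library labelled high and 47.4 CPM in the one labelled low, but on TPM, with its shorter estimated length, the library labelled high lay above DMSO (log2 ratio 0.180).

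ABCB1 rose in the replicated set and read 32.7 CPM with DMSO, 32.8 CPM in the library labelled high and 50.9 CPM in the one labelled low in the dose set, so only the library labelled low was higher. ABCA5 read 25.9 CPM with DMSO, 27.5 CPM in the library labelled high and 29.4 CPM in the one labelled low, ratios of 1.06 (95% exact interval 0.953 to 1.18) and 1.13 (95% exact interval 1.02 to 1.26), below the 1.68-fold of the replicated set. ABCF1 read 189 CPM with DMSO, 206 CPM in the library labelled high and 186 CPM in the one labelled low. ABCG1 had 0 counts in all 3 dose libraries, which allows up to 0.111 to 0.135 CPM. ABCC4, which fell in the replicated set, read 23.001 CPM with DMSO, 24.1 CPM in the library labelled high and 32.3 CPM in the one labelled low, a ratio of 1.41 (95% exact interval 1.26 to 1.57) for low and 1.05 (95% exact interval 0.934 to 1.17) for high.

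**Figure D5:**
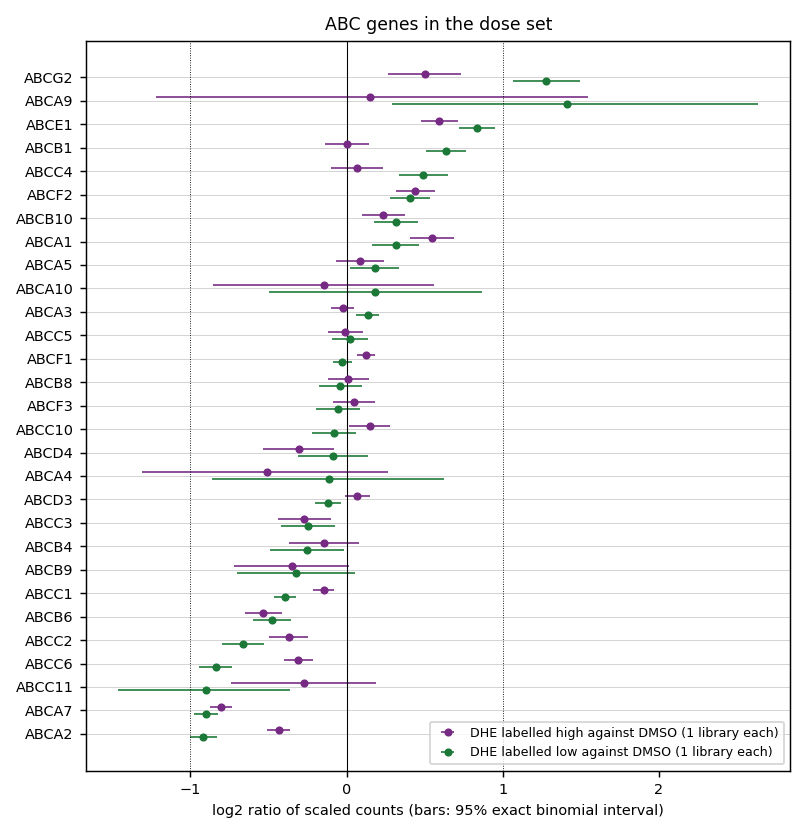
Log2 ratio to the dose-set DMSO library for 29 members with enough counts, in the libraries labelled high and low, with 95% exact binomial intervals that cover counting error only. Dotted lines mark 2-fold, which ABCG2 (2.42-fold) and ABCA9 (2.66-fold) pass in the library labelled low, and no member drawn passes it downward.

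Genes that work beside the family were read from lists chosen by function. Of ABC proteins with other symbols, TAP2, the antigen peptide transporter subunit, fell (log2 fold change -0.405, edgeR adjusted p = 0.0198), its partner TAP1 was not called (log2 fold change -0.07, edgeR adjusted p = 0.739) and CFTR was not tested. The call of TAP2 was lost without DMSO replicate 2 or DHE replicate 1, leaving 0 of 2. Of hepatocyte carriers that are no ABC pumps, 10 of 14 were tested, 0 rose and 4 fell, among them the organic cation carrier SLC22A3 (log2 fold change -0.51, edgeR adjusted p = 0.00155), the canalicular cation extruder SLC47A1 (log2 fold change -0.402, edgeR adjusted p = 0.00261) and the canalicular flippase ATP8B1 (log2 fold change -0.34, edgeR adjusted p = 0.00716). Without DHE replicate 3, 1 carrier was called higher.

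Regulators of transporter genes moved both ways, with 6 of 18 tested higher and 3 lower. HNF4A (log2 fold change 0.51, edgeR adjusted p = 2.29e-05) and KEAP1, the inhibitor of NRF2 (log2 fold change 0.44, edgeR adjusted p = 0.00019), rose, and NR1H3, the LXR alpha gene (log2 fold change -0.62, edgeR adjusted p = 0.00014), fell. Without DMSO replicate 1 or DMSO replicate 3, 3 regulators were higher. Of 11 tested LXR targets outside the family 2 rose and 2 fell: the desaturase gene SCD (log2 fold change 0.48, edgeR adjusted p = 3.43e-05) and the fatty acid synthase gene FASN (log2 fold change 0.32, edgeR adjusted p = 0.00322) rose, and NR1H3, itself a target, was among the falls. Among 9 tested HDL acceptors and lipidation partners 2 rose and 3 fell. The apolipoprotein gene APOA4 rose (log2 fold change 0.89, edgeR adjusted p = 0.00107), and the hepatic lipase gene LIPC (log2 fold change -0.52, edgeR adjusted p = 0.000713) and PLTP, the phospholipid transfer protein gene (log2 fold change -0.54, edgeR adjusted p = 0.00546), fell. Without DMSO replicate 2, 1 of these partners was higher.

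Partners of ABCE1 and ABCF1 in termination and ribosome rescue gave 4 rises and 3 falls of 14. The initiation factor genes EIF3J (log2 fold change 0.35, edgeR adjusted p = 0.00348) and EIF2S1 (log2 fold change 0.3002, edgeR adjusted p = 0.0157) rose, and GCN1, the ribosome collision sensor listed as GCN1L1 (log2 fold change -0.27, edgeR adjusted p = 0.00797), fell. Without DMSO replicate 2, 2 were higher, without DMSO replicate 3, 1, and without DMSO replicate 1, 2 or 3 or DHE replicate 2, 1 was lower. Under upper quartile factors 5 were lower, and a replicate block gave 6. Of 14 peroxisomal partners of subfamily D, 2 rose and 4 fell. BAAT, which conjugates bile acids to amino acids, rose (log2 fold change 0.99, edgeR adjusted p = 4.43e-05), while PEX19, a chaperone of peroxisomal membrane proteins (log2 fold change -0.399, edgeR adjusted p = 0.000189), and SCP2, a thiolase and sterol carrier (log2 fold change -0.33, edgeR adjusted p = 0.00263), fell. Without DMSO replicate 3 or DHE replicate 3, 2 were lower. Of 14 mitochondrial iron-sulfur and haem partners 0 rose and 2 fell. They were FECH, which inserts iron to form haem (log2 fold change -0.32, edgeR adjusted p = 0.0102), and the mitochondrial iron importer SLC25A37 (log2 fold change -0.78, edgeR adjusted p = 0.0198). Of the 2, 1 was left without DMSO replicate 1 or DMSO replicate 2. With limma on log2(TPM + 1), each of these 8 lists had fewer called genes, 0 among the ABC genes with other symbols, the carriers, the ribosome partners and the iron-sulfur and haem partners.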

How the data were processed

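Per the labels, TRIzol served to extract the RNA and an NEBNext Ultra kit to prepare polyA RNA libraries. Groups and replicate numbers come from the sample titles. The deposited tables hold, per the file headers, RSEM's expected count for each gene, an estimated count that is not normalized, and a TPM value, which the authors obtained from RSEM as abundance relative to length and library size. GRCh38 was the build, according to the submitters' processing notes. Which aligner, tool versions and strand setting were used is not given in the sources used here. Overlapping and near-identical genes are therefore uncertain.

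Expected counts were rounded. The replicated set was compared with edgeR 4.0.16 in R 4.3.3 (TMM factors, default low-count filter by group, two-sided quasi-likelihood test over 14492 genes, threshold 0.05). The biological coefficient of variation was 8.37%. CPM are TMM-scaled counts relative to the library total. In the dose set, genes with at least 20 counts in 1 of 3 libraries were used. Log2 ratios, their medians and the 2-fold counts add a prior count of 2 to the TMM-scaled values. Ratios printed with an interval, and those drawn, have no prior count, and the intervals are exact binomial at 95%. Library totals of 22167516 to 36267216 counts set the limit of 3 counts that a count of 0 allows, 0.0827 to 0.135 CPM. The edgeR comparison was tested on simulated data. All 46 members enter the counts, and called members are given in every library, but some members are not reported here. Of each related list, the counts and up to 3 called members with the smallest p are named. Members and lists were chosen with earlier results of these data known, so no count of a list is independent evidence. Promoters come from RefSeq on GRCh38.p14, and no protein sequences were used here. Alternatives included DESeq2 1.42.0, limma-voom and limma 3.58.1 on log2 TPM with a pseudocount of 1 or 0.1, other scaling factors, other filters, fits without each library in turn and a fit with the replicate number as a block. Figures used matplotlib 3.10.9 in Python 3.11.15.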

Additional observations from a re-analysis of the deposited data

Results flagged for a closer look

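ABCC4 moved one way in the replicated set and the other way in the dose set. Its log2 fold change was -0.32 across the replicates, while its log2 ratio to DMSO was 0.0661 in the library labelled high and 0.49 in the library labelled low. The difference between the sets was not tested, because the dose set has 1 library per group.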

How the results depend on the processing

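Against 8 members higher and 9 lower, limma on log2(TPM + 1) and on log2(TPM + 0.1) gave 1 and 1 higher and 3 and 3 lower, and over all genes 497 higher and 448 lower with the first, 486 and 436 with the second, against 1945 and 1858. The cause was not tested. With 1 library left out at a time there were 6 to 10 members higher and 5 to 9 lower, with 5 lower without DMSO replicate 2 or DMSO replicate 3. Without both number-1 libraries 8 were higher and 5 lower. With a replicate block 9 were higher and 10 lower, and over all genes 2250 higher and 2186 lower, against 1945 and 1858 without it. Correlations of same-numbered libraries' deviations were 0.085, 0.0525 and -0.0477, and those of differently numbered libraries ran from -0.116 to 0.0529. The titles give a replicate number only, and the numbers were not taken to pair the samples. Whether they do is left undecided by these values. Still, DHE replicate 1 differed less from DMSO replicate 1 (chi-square per gene 31.1) than from DMSO replicates 2 and 3 (50.3 and 51.2). Other scaling factors, DESeq2, limma-voom and other filters gave 6 to 9 higher and 8 or 9 lower. A filter of 100 counts left 1 member, ABCG2, 2-fold higher in the library labelled low. Signs turned for ABCD4 (0.00257 and 0.00268 on the TPM scales, -0.0780 to 0.0288 with 1 library left out) and ABCG2 (-0.46 to 0.11 with 1 library left out, positive without DMSO replicate 3). In the dose set they turned for ABCC6 labelled high on TPM (0.180) and for ABCD3 labelled low (0.0135 with library totals, 0.0512 on TPM). Low counts limit ABCA6, ABCA9, ABCA4 and ABCG1.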

Other observations

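The DMSO libraries of the replicated and the dose set differed for some members. ABCG2 had a mean of 0.330 TPM in the DMSO replicates and 3.92 TPM in the dose-set DMSO library. ABCC3 stood at 29.1 TPM and 9.93 TPM, ABCB6 at 15.8 and 32.6 TPM, ABCB10 at 7.25 and 14.0 TPM, and ABCA1 at 8.04 and 4.16 TPM. The labels describe both as DMSO under hypoxia, and the sets' other differences cannot be told apart from these.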
